A study of Rattus norvegicus with 4 samples.

Results

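The miR-29 family of rat liver cells was followed on 7 array probes, chosen by spot name (rno-miR-29a, rno-miR-29b or rno-miR-29c, with any copy number and arm) from the 761 miRNA probes of the array. Total RNA from primary liver sinusoidal endothelial cells (LSECs) and from primary hepatocytes had been labelled with Cy5 and hybridised to single-colour 3D-Gene arrays, with 2 arrays of each cell type. All 4 samples came from untreated male Sprague-Dawley rats aged 10 weeks, and no genotype or agent set the groups apart. LSECs form the fenestrated wall of the liver sinusoids, and hepatocytes are the parenchymal cells of the organ. Whether the 2 samples of a cell type are from different animals is not stated in the labels, so p-values measure only the spread between these samples, which may be technical. In such bulk samples, more miR-29 per cell and more cells that carry it cannot be told apart.

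MicroRNAs (miRNAs) silence messenger RNAs by base pairing, mainly through a short stretch called the seed. A hairpin precursor can give 2 mature strands, named 5p and 3p after its arms, and for miR-29 the 3p strand is the guide that is usually loaded and retained. The family is known for repressing collagens, elastin and fibrillin, and for repressing the DNA methyltransferases Dnmt3a and Dnmt3b. It is called antifibrotic because it falls in activated hepatic stellate cells, the matrix-producing cells of the sinusoid, in mouse and human liver fibrosis. Neither stellate cells nor fibrotic livers were sampled here.

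The mature 3p sequences are shown because all 3 carry the same seed (bases 2 to 8, in capitals) and differ only downstream of it. They are from RefSeq for the GRCr8 rat assembly, 5′ to 3′, and all 7 probe names matched an entry there.
miR-29a-3p: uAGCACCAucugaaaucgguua
miR-29b-3p: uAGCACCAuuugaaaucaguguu
miR-29c-3p: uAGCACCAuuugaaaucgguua
Counted from the 5′ end, miR-29a-3p and miR-29c-3p were identical at 21 of 22 bases and differed by C10U. From miR-29b-3p to miR-29c-3p the changes were A18G, G21U and U22A over 22 bases, and miR-29b-3p was 1 base longer, at 23 bases. No other mature miRNA of the RefSeq table shared this seed (3 of 693 names). The last 6 bases of miR-29b-3p are AGUGUU, an element reported to direct the human miRNA to the nucleus. This motif, read on the miRNA strand, was held by 1.15% of the 693 mature sequences and ended 0.289% of them. Hybridisation of one member to another member's probe was not tested.

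The 5p sequences are shown because they differ between the 2 copies of miR-29b, which share 1 mature 3p strand. Their seeds are again in capitals.
miR-29a-5p: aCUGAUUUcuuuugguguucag
miR-29b-1-5p: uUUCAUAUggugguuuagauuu
miR-29b-5p: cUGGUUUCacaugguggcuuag
miR-29c-5p: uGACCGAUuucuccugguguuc
Each of these seeds belonged to 1 name in the table. In the GRCr8 annotation Mir29a (chr4:60617955-60618042) and Mir29b1 (chr4:60618334-60618414) lie on the minus strand of chromosome 4, 291 bases apart. Mir29b2 (chr13:109098831-109098911) and Mir29c (chr13:109099359-109099446) lie on the plus strand of chromosome 13, 447 bases apart. No annotated gene other than miRNA genes overlaps the chromosome 4 hairpins. Both chromosome 13 hairpins overlap the long non-coding RNA gene LOC102550527, whose strand was not available. RefSeq places miR-29b-5p on the Mir29b2 hairpin. The precursors of both miR-29b copies are shown with their mature strands in capitals, since the 3p probe reads the sum of their products.
Mir29b1: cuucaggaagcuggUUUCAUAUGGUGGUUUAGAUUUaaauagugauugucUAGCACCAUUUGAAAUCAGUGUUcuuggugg
Mir29b2: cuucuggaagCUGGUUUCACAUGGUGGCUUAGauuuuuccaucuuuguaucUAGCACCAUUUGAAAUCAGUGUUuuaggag

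Spot medians are linear brightness with the background still in. A probe counted as detected on an array where it exceeded the mean of the blank spots by 2 SD. The blank mean was 70.9 and 71.8 units in LSECs and 79.5 and 92.1 units in hepatocytes, and 680 and 662 miRNAs were detected in LSECs and 563 and 597 in hepatocytes. Normalized log2 values of the 653 miRNAs that both arrays of a cell type detected entered the limma test, and a call means a Benjamini-Hochberg adjusted p under 0.05. All 7 miR-29 probes passed this filter, miR-29b-1-5p and miR-29c-5p through the LSEC arrays alone. Passing through 1 cell type alone favours a higher value in it, so counts by direction partly follow the filter. Over all miRNAs 240 (36.8%) were called, 121 (18.5%) higher in LSECs and 119 (18.2%) higher in hepatocytes, with a median difference of 0.00. That median was 0.26 under spike scaling and -0.15 with the 75th percentile. In the authors' values it was 0.28, over only the 482 miRNAs with a value on all 4 arrays. The split of calls moved as well. It was 137 higher in LSECs and 308 in hepatocytes with the 75th percentile, 430 in LSECs and 24 in hepatocytes under spike scaling, and 221 in LSECs and 108 in hepatocytes with the median. Without LSEC array 1 or LSEC array 2 the calls fell to 116 and 120. Precision is limited by the 4 arrays.

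Of the 7 miR-29 probes 2 were called, miR-29b-3p higher in LSECs and miR-29c-3p higher in hepatocytes, against the 36.8% called over all miRNAs. In normalized values LSECs and hepatocytes were separated without overlap at 6 of the 7 probes, against 71.4% of all miRNAs tested. At 5 of the 7 the LSEC arrays were the higher ones, against 36.6% of all. The median difference of the 7 was 0.12, beside 0.00 for all miRNAs tested. Since miR-29b-1-5p and miR-29c-5p entered the test through the LSEC arrays alone, no lean of the family is read from these values. The direction of miR-29b-3p held under every setting tried, and that of miR-29c-3p turned to the LSEC side under 5 of 19, as detailed after the values. With each array left out in turn, the difference ran from 1.87 to 2.44 for miR-29b-3p and from -0.80 to -0.45 for miR-29c-3p.

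Of the 7 probes, miR-29b-3p had the largest difference after quantile normalization. Its spot read 2404 and 2859 units in LSECs and 245 and 275 units in hepatocytes. Both LSEC arrays lay far above both hepatocyte arrays, with no overlap. Above the blank mean this was 2333 and 2787 units in LSECs and 165 and 183 units in hepatocytes, a ratio of means of 14.7. In the authors' deposited table the levels were 3625 and 3932 in LSECs and 397.6 and 285.5 in hepatocytes, a ratio of 11.1. After quantile normalization miR-29b-3p averaged 10.67 ± 0.10 in LSECs and 8.50 ± 0.31 in hepatocytes (log2, SD, n = 2 each). The limma difference was 2.16 ± 0.17 (SE; 95% interval 1.70 to 2.63; adjusted p = 0.0016), or 4.48-fold on the log2(intensity + 50) scale. It was the 19th largest LSEC excess of the 653 miRNAs. In the order of brightness on each array, which no scaling changes, its probe stood 22nd and 19th of 761 in LSECs and 64th and 77th in hepatocytes. The difference was called in 18 of 19 alternatives, over a range of 1.87 to 4.27 (limma adjusted p from 1.47e-07 to 0.296). The exception was subtraction of the deposited background column (2.11, adjusted p = 0.296), a column that rose with the spot's own brightness (r = 0.964 to 0.982 across miRNA probes).

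**Figure D1:**
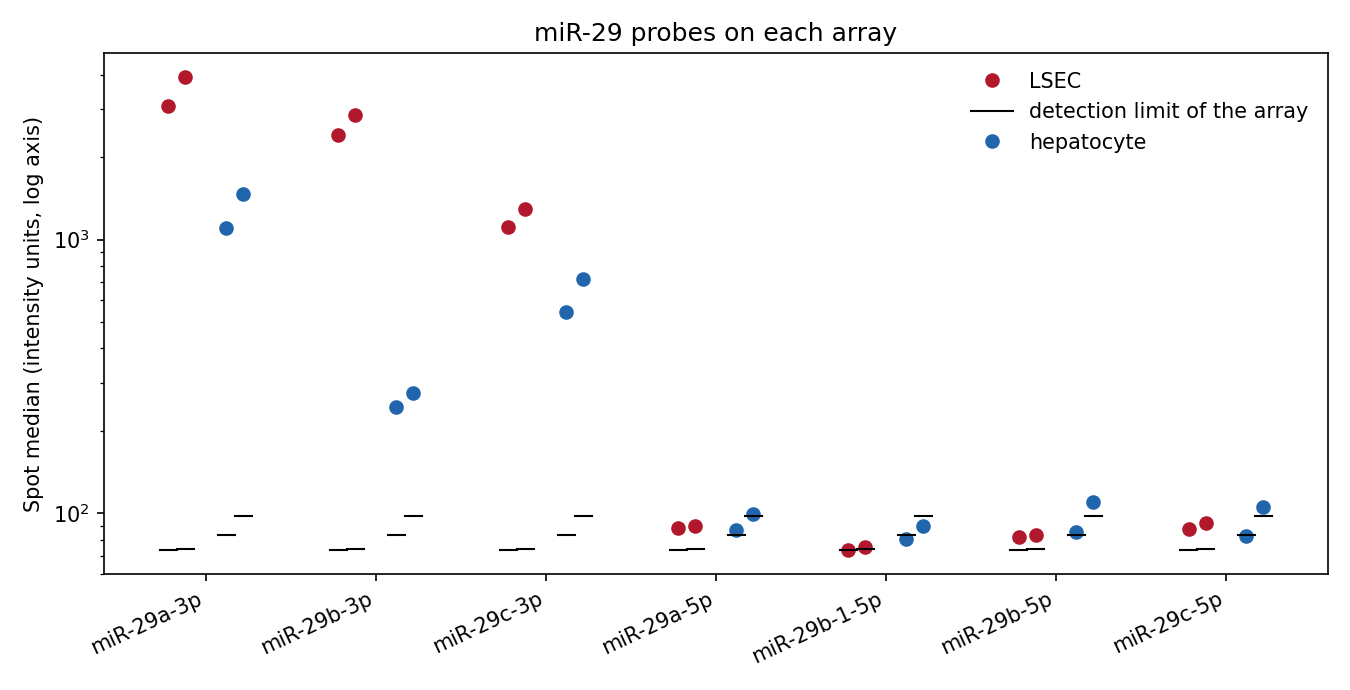
Spot medians of the 7 miR-29 probes (intensity units, log axis) on each array, with LSEC arrays in red left of hepatocyte arrays in blue. Short black lines mark each array's detection limit. The 3p probes stand well above it, miR-29b-3p at 2404 and 2859 units in LSECs and 245 and 275 units in hepatocytes, while the 5p probes lie near it.

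The strand miR-29a-3p, encoded beside a miR-29b copy on chromosome 4, differed less. Its spot read 3078 and 3939 units in LSECs and 1105 and 1466 units in hepatocytes, with no overlap. The authors' levels were 4672 and 5455 in LSECs and 2469 and 2146 in hepatocytes, a ratio of 2.19. Normalized values averaged 11.18 ± 0.04 in LSECs and 10.87 ± 0.19 in hepatocytes (log2, SD, n = 2 each). The limma difference of 0.31 ± 0.11 (SE; 95% interval 0.01 to 0.60) was not called after adjustment over all miRNAs (adjusted p = 0.0971). Its probe stood 14th and 13th in brightness in LSECs and 15th and 19th in hepatocytes. The size of this difference depended on the scaling, at 1.38 with the median (limma, adjusted p = 0.00139), 0.69 with the 75th percentile (0.00667) and 1.13 in the authors' values (0.00349), all called, as it was without normalization (1.48) and under spike scaling (2.34). It was -0.36 with cyclic loess, without a call (adjusted p = 0.0699). Without hepatocyte array 1 it was 0.39 and called (adjusted p = 0.0474).

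For miR-29c-3p, encoded beside the other miR-29b copy on chromosome 13, the direction itself depended on the scaling. Its spot read 1116 and 1294 units in LSECs and 542 and 718 units in hepatocytes. Raw signal was thus higher on both LSEC arrays, while the spike control spots were lower there, at 12305 and 12553 units above the blanks in LSECs and 17818 and 29943 units in hepatocytes. The authors' levels were 1624 and 1724 in LSECs and 1113 and 978.1 in hepatocytes, a ratio of 1.60. In brightness order, however, the probe stood 47th and 45th in LSECs and 30th and 37th in hepatocytes. Normalized values averaged 9.42 ± 0.07 in LSECs and 10.04 ± 0.20 in hepatocytes (log2, SD, n = 2 each). The limma difference was -0.62 ± 0.11 (SE; adjusted p = 0.0205), higher in hepatocytes, but 0.89 with median scaling (adjusted p = 0.0029), 0.99 without normalization (0.00148), 1.83 under spike scaling (3.42e-05), 0.68 in the authors' values (0.0182) and 0.24 with the 75th percentile (0.0813). The call also ended without LSEC array 1 (adjusted p = 0.159), LSEC array 2 (0.143) or hepatocyte array 1 (0.0529), with plain subtraction (-0.67, 0.0657) and with the background column (-0.12, 0.852). Direction and call thus held under 9 of 19 alternatives. Several of these changed only the detection filter, moderation or replicate block. Such changes leave the difference at -0.62, so its direction could not turn there.

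**Figure D2:**
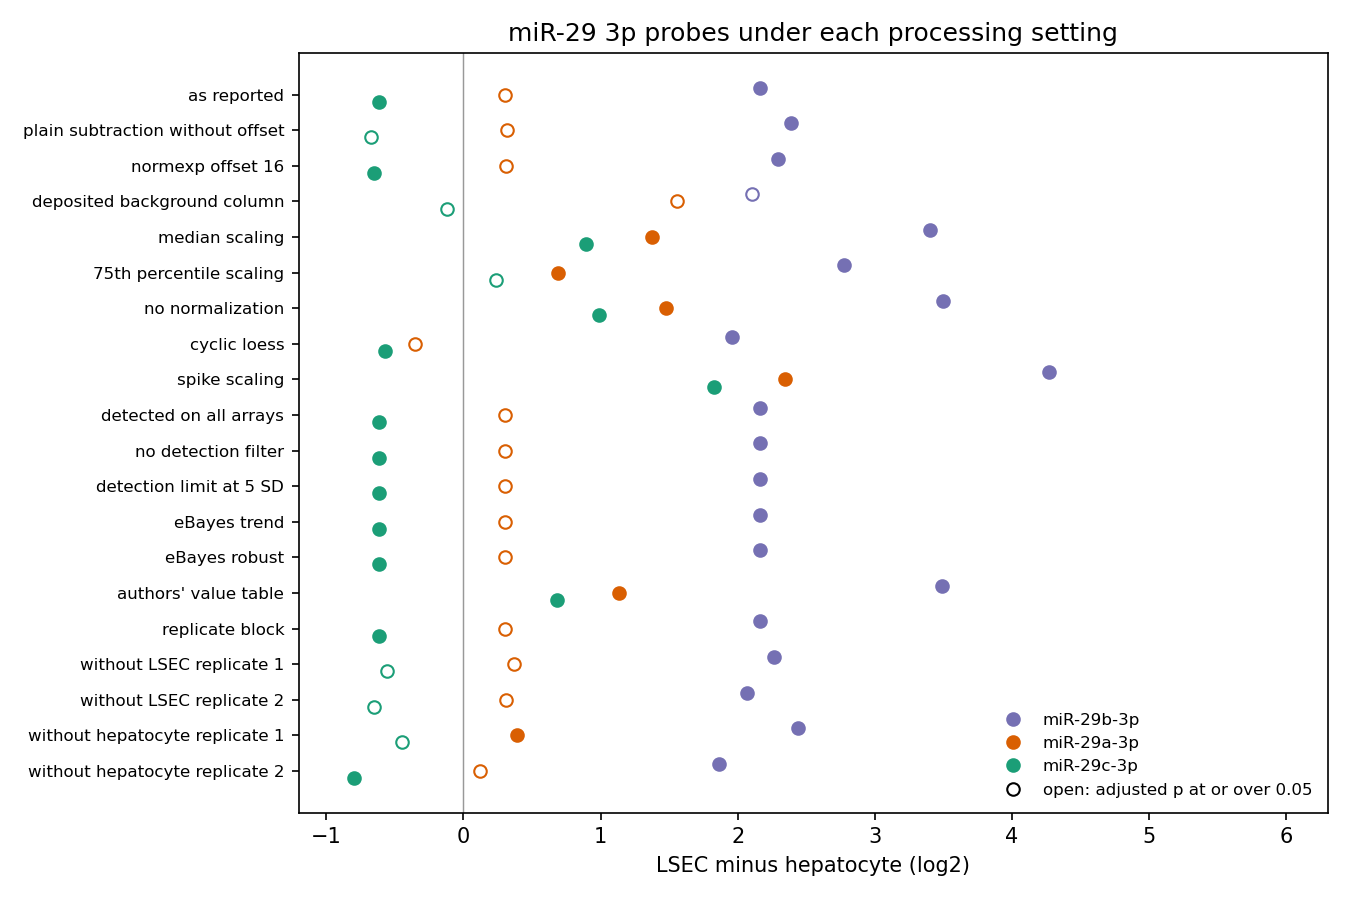
LSEC minus hepatocyte difference (log2) of the 3 miR-29 3p probes under the reported processing and 19 alternatives, one row each, with filled points for calls. Points of miR-29b-3p lie between 1.87 and 4.27, right of the other members in every row, while miR-29c-3p changes sign under 5 settings and miR-29a-3p with cyclic loess.

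Whether the members differ from each other was tested on their differences within each array, which a common scaling factor moves less than the levels. Levels of different probes are not comparable, so only the change of a difference between cell types is read. All pairs of tested miRNAs with the same number and arm but another letter entered 1 limma fit. Of 182 such pairs, 47 (25.8%) were called, against 27, 29 and 31 without LSEC array 1, LSEC array 2 and hepatocyte array 1. For miR-29b-3p minus miR-29c-3p the within-array difference was 1.22 and 1.27 in LSECs and -1.46 and -1.61 in hepatocytes. The pair shifted toward miR-29b-3p in LSECs by 2.78 ± 0.09 (SE; 95% interval 2.55 to 3.01; adjusted p = 1.73e-05), the 3rd largest shift of the 182. For miR-29a-3p minus miR-29b-3p the values were 0.56 and 0.47 in LSECs and 2.29 and 2.46 in hepatocytes. This shift was -1.86 ± 0.10 (SE; adjusted p = 0.000121), ranked 7th, so miR-29b-3p gained on miR-29a-3p too.

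Between miR-29a-3p and miR-29c-3p, whose mature sequences differ at 1 base, the shift was smaller. The within-array difference was 1.77 and 1.74 in LSECs and 0.83 and 0.84 in hepatocytes, a shift of 0.92 ± 0.08 (SE; adjusted p = 0.000495) toward miR-29a-3p in LSECs. Its size fell to 0.48 with median scaling, 0.46 with the 75th percentile, 0.49 without normalization and 0.52 under spike scaling, all still called. It was no longer called with cyclic loess (0.21, adjusted p = 0.125), in the authors' values (0.45, 0.0611), with plain subtraction (0.99, 0.0755) or with the background column (1.68, 0.643). By contrast, the shifts of miR-29b-3p against both other members were called in 18 of 19 alternatives each, with the background column again the exception. Over all alternatives they ran from 2.23 to 3.06 against miR-29c-3p and from -2.35 to -0.55 for miR-29a-3p minus miR-29b-3p. The 3 pairs share members, so these shifts are not independent of each other.

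**Figure D3:**
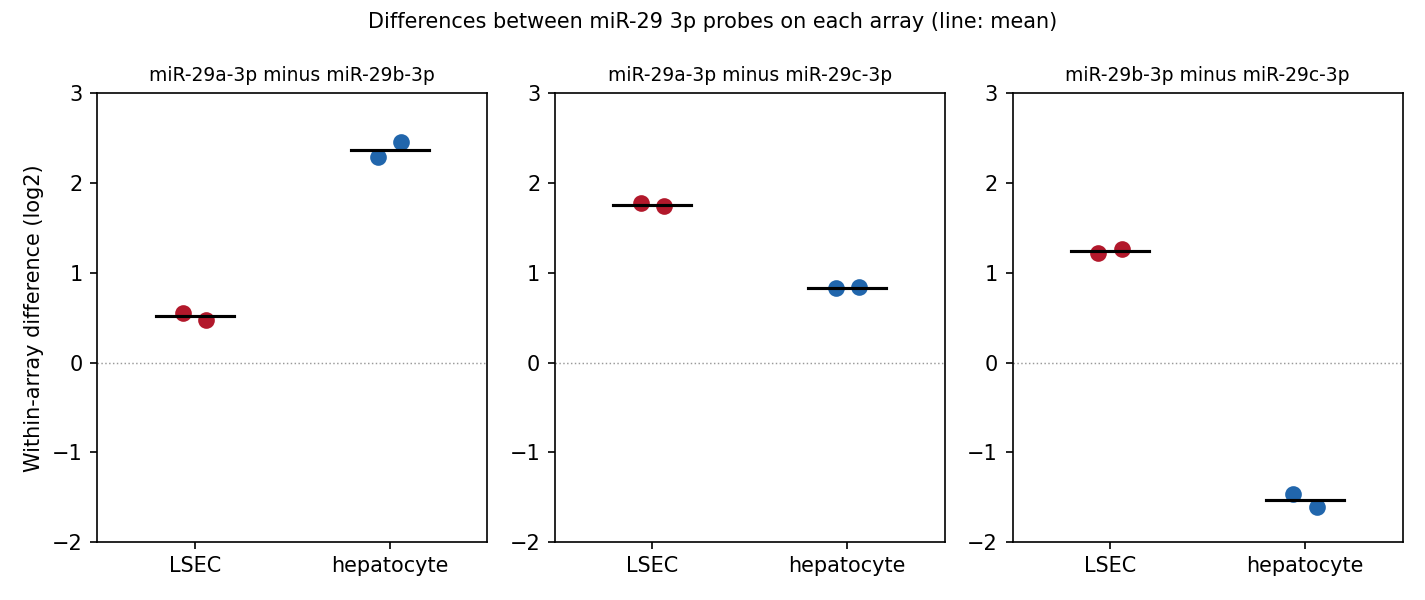
Within-array difference (normalized log2) between 2 miR-29 3p probes, one panel a pair, with LSEC arrays in red left of hepatocyte arrays in blue and a line at each mean. The difference miR-29b-3p minus miR-29c-3p stands at 1.22 and 1.27 in LSECs and -1.46 and -1.61 in hepatocytes. The smaller shift of miR-29a-3p minus miR-29c-3p was not called with cyclic loess, in the authors' values, with plain subtraction or with the background column.

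The 5p strands were dim in both cell types. For miR-29a-5p, the other strand of the miR-29a hairpin, the signal above the blank mean was 17.6 and 17.8 units in LSECs and 7.54 and 7.18 units in hepatocytes. The LSEC arrays were the higher ones, without overlap. The normalized difference was 0.12 ± 0.07 (SE; 95% interval -0.07 to 0.30; adjusted p = 0.246), but it was called in the authors' values (0.88, adjusted p = 0.0306), under spike scaling (0.40) and without hepatocyte array 1 (0.22), and lay at -0.054 with the 75th percentile.

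Neither copy-specific strand of miR-29b was called after quantile normalization. For miR-29b-1-5p, the chromosome 4 copy, the signal above the blank mean was 2.55 and 3.53 units in LSECs and 0.68 and -2.31 units in hepatocytes. It was detected on both LSEC arrays, just over the limit, and on neither hepatocyte array. The normalized difference was 0.08 ± 0.04 (SE; adjusted p = 0.25), with 1.49 and a call under plain subtraction (0.0289), -0.075 with the 75th percentile and -0.051 with the background column. No fold can be bounded, since the LSEC mean lay under the lowest detected signal of the hepatocyte arrays. For miR-29b-5p, the chromosome 13 copy, it was 11.1 and 11.2 units in LSECs and 5.86 and 18.0 units in hepatocytes, so the cell types overlapped. The normalized difference was -0.09 ± 0.09 (SE; adjusted p = 0.468), and its sign turned without hepatocyte array 2 (0.021). Settings called it in opposite directions, higher in hepatocytes with the 75th percentile (-0.25, adjusted p = 0.0263) and without hepatocyte array 1 (-0.24, 0.033) but higher in LSECs under spike scaling (0.17, 0.0321).

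The last of the dim strands, miR-29c-5p, stood 16.4 and 20.7 units above the blank mean in LSECs and 2.95 and 13.3 units in hepatocytes. It was detected on both LSEC arrays and on 1 hepatocyte array. The difference of 0.14 ± 0.08 (SE; adjusted p = 0.277) was not called, and it lay at -0.023 with the 75th percentile. Under spike scaling it was called (0.43, adjusted p = 0.00161), and leaving out hepatocyte array 1 gave 0.041 and leaving out hepatocyte array 2 gave 0.26, neither called. None of the 5 same-arm pairs among the 5p strands was called after quantile normalization, with the nearest at -0.23 for miR-29b-5p minus miR-29c-5p (95% interval -0.43 to -0.03; adjusted p = 0.0961). That pair was called with median scaling (-0.23, adjusted p = 0.0388) and under spike scaling (-0.25, 0.022). Adding 50 units before the log compresses differences at signals this close to the blanks.

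**Figure D4:**
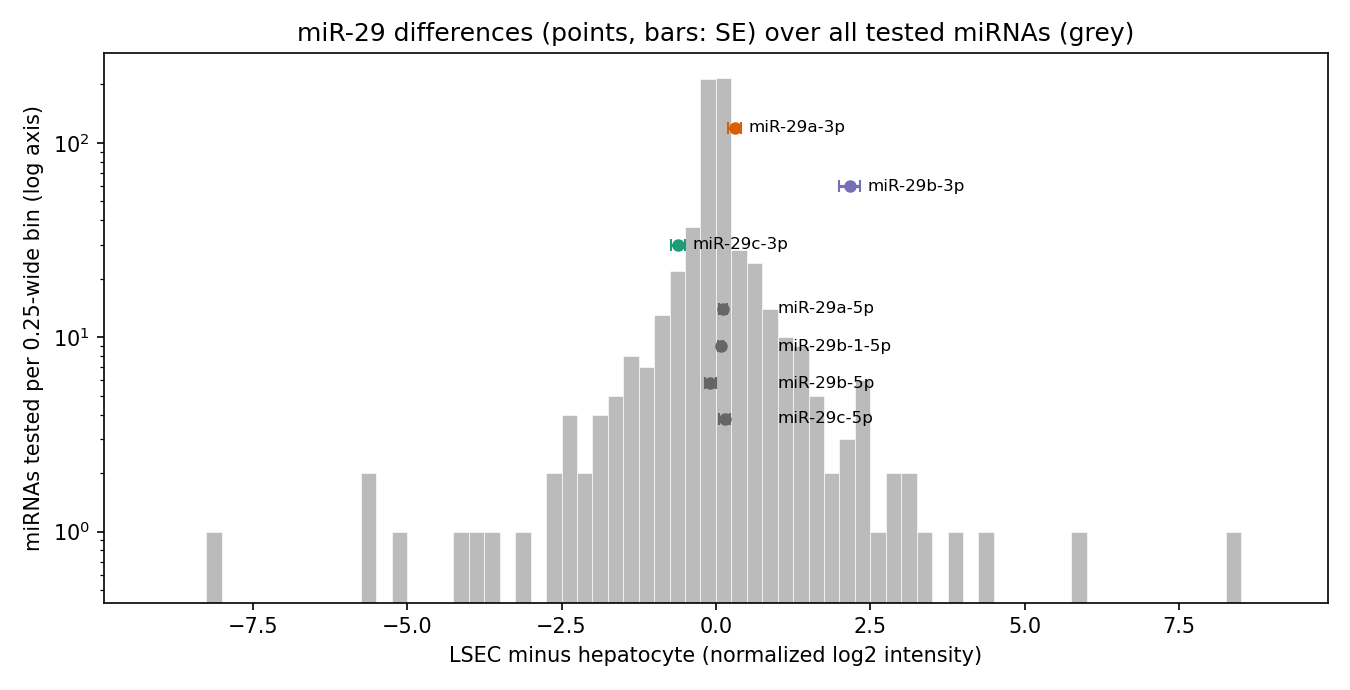
Histogram (log axis) of the LSEC minus hepatocyte difference of all 653 miRNAs tested, in grey, with the 7 miR-29 probes as points and their SE as bars; the height of a point has no meaning. The point of miR-29b-3p lies at 2.16, and the 5p probes lie near 0. The point of miR-29c-3p, at -0.62, moves to the right of 0 under 5 other settings, and that of miR-29a-3p, at 0.31, to the left with cyclic loess.

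The arms of each hairpin were set against each other in the same way, as the 5p minus 3p difference within an array. Of 247 such pairs of arms, 138 (55.9%) were called, so a call here is common. For miR-29b-5p minus miR-29b-3p the values were -4.56 and -4.71 in LSECs and -2.71 and -2.05 in hepatocytes. The shift of -2.26 ± 0.21 (SE; adjusted p = 0.000154) ranked 20th in size of the 247. It was -2.81 with plain subtraction (limma adjusted p = 0.0249) and -3.75 in the authors' values (0.00225), neither of which adds an offset. The call ended with the background column (-2.11, 0.187). Most of the shift was the miR-29b-3p difference (2.16) again, since miR-29b-5p lay near the blanks and differed by -0.09. The 3p probe also reads both copies, while miR-29b-5p is placed on Mir29b2 alone, so the shift is not an arm ratio of 1 hairpin. The other copy's strand, miR-29b-1-5p, was detected on neither hepatocyte array, so a shift of miR-29b-3p against it cannot be told from the change of miR-29b-3p alone, and none is read.

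For the other hairpins the arms gave no direction that held. For miR-29a-5p minus miR-29a-3p the shift was -0.19 ± 0.09 (SE; adjusted p = 0.114), with -1.25 under median scaling (0.00107) and 0.49 with cyclic loess (0.00789). For miR-29c-5p minus miR-29c-3p it was 0.76 ± 0.16 (SE; adjusted p = 0.00708) after quantile normalization but -0.73 under median scaling (0.0133).

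Opposite 3 of the hairpins the annotation places other miRNA genes, whose probes are also on the array: Mir3556a across from Mir29a, Mir3587 across from Mir29b1 and Mir3556b across from Mir29c. They are shown because each is the exact complement of a miR-29 3p strand over its whole length.
miR-3556a: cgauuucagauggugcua
miR-3587: aacacugauuucaaauggugc
miR-3556b: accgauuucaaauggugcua
The complementary run was 18 bases for miR-3556a with miR-29a-3p, 21 bases for miR-3587 with miR-29b-3p and 20 bases for miR-3556b with miR-29c-3p. Their probes stayed within 7 units of the blank mean on all 4 arrays. At miR-3587 the signal above it was 2.68 and 3.94 units in LSECs and 3.29 and 6.81 units in hepatocytes. That probe alone of the 3 was tested, with a difference of -0.04 ± 0.04 (SE; adjusted p = 0.471) that lay at 0.039 under spike scaling. On the same arrays the probe of miR-29b-3p stood 2333 and 2787 units above the blanks in LSECs and 165 and 183 units in hepatocytes.

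Among miRNAs with a common seed, the spread seen within miR-29 was at the wide end. Of the 653 miRNAs tested 585 had a RefSeq sequence, and 14 seeds were shared by at least 3 of them. The range of LSEC minus hepatocyte differences within such a group had a median of 1.27 log2 units. For the miR-29 3p strands it was 2.78, the 2nd widest after the group of miR-148 and miR-152, at 4.22. The group of miR-15 and miR-16 spanned 2.75 and let-7 with miR-98 spanned 2.37. The 5 tested members of the miR-15 and miR-16 group were all called higher in LSECs after quantile normalization. By contrast, 2 miR-29 strands were called in opposite directions. That held under 9 of 19 alternatives, several of which cannot move a difference. Opposite calls within a seed group were not particular to miR-29. After quantile normalization, let-7 with miR-98 had 7 calls on the LSEC side and 1 on the hepatocyte side. The group that holds miR-17-5p and miR-20a-5p had 2 and 1. The narrowest range, 0.038, was that of 3 miR-196 strands, which read near the blanks on all arrays. These groups were chosen after the values were seen, and their ranges are descriptions with no test.

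**Figure D5:**
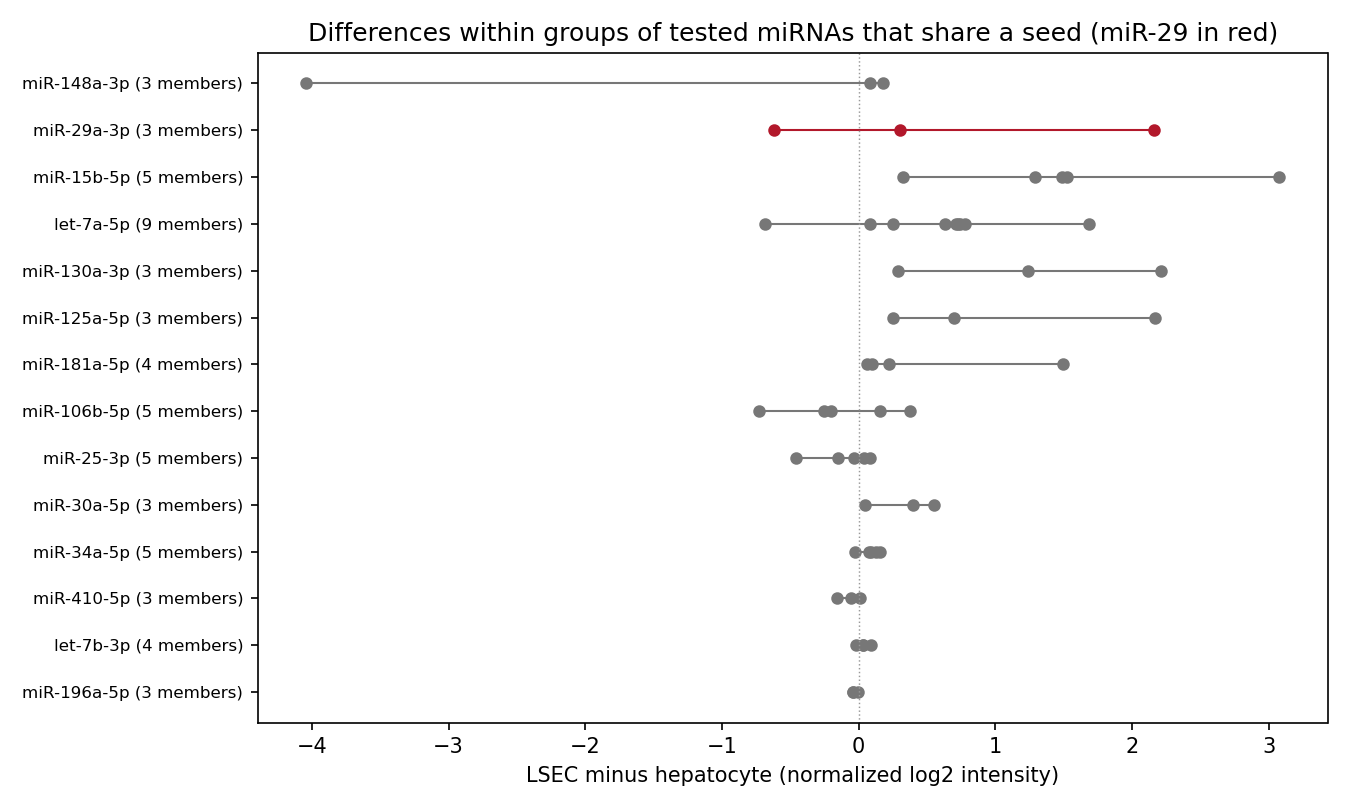
LSEC minus hepatocyte difference (normalized log2) of tested miRNAs in the 14 groups that share a seed, ordered by range, with miR-29 in red. The 3 miR-29 strands span -0.62 to 2.16, where the lowest, miR-29c-3p, lies above 0 under 5 other settings.

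The miRNAs whose normalized pattern over the 4 arrays lay closest to each member were found by Euclidean distance of centred log2 values. Nearest to miR-29b-3p were miR-23b-3p at a distance of 0.31, miR-27a-3p at 0.33 and miR-450a-5p at 0.35. Their differences were 2.30 ± 0.07, 2.39 ± 0.06 and 2.26 ± 0.06 (SE). The authors' levels of miR-23b-3p were 7920 and 6623 in LSECs and 646.3 and 615.8 in hepatocytes. Nearest to miR-29a-3p were miR-666-5p, miR-125b-5p and miR-3085, with differences of 0.28, 0.25 and 0.28. To miR-29c-3p the nearest were miR-26b-5p, miR-325-3p and miR-25-5p, at -0.61, -0.66 and -0.66. Of these miR-26b-5p turned to the LSEC side with median scaling (0.84), the background column (0.53), the 75th percentile (0.16), no normalization (0.94), spikes (1.80) and the authors' values (0.60). With spikes miR-25-5p turned as well (0.53), and without normalization miR-325-3p kept the hepatocyte side at -0.43.

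Nearest to the dim 5p strands were miRNAs that were equally flat after quantile normalization. For miR-29a-5p they were miR-181b-5p, miR-103-3p and miR-31b, at differences of 0.096, 0.092 and 0.12. For miR-29b-1-5p they were miR-211-5p, let-7f-1-3p and miR-181b-2-3p, at 0.081, 0.088 and 0.079. For miR-29b-5p they were let-7e-3p, miR-338-5p and miR-3568, at -0.079, -0.13 and -0.061. For miR-29c-5p they were miR-539-5p, miR-30c-2-3p and miR-186-5p, at 0.11, 0.15 and 0.093. None of these 12 neighbours was called after quantile normalization, and the sign of each turned under at least 1 alternative. Several were called under other scalings. Higher in LSECs were miR-103-3p with the median (1.41) and spikes (2.24) and miR-186-5p with spikes (1.01). Higher in hepatocytes was let-7e-3p with the 75th percentile (-0.25). All patterns rest on 4 arrays.

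Other miRNAs named in reports on liver fibrosis did not share 1 direction after quantile normalization. Of 14 said to restrain it, 4 were called higher in LSECs, 7 were called higher in hepatocytes and 3 were not called, against 18.5% of all miRNAs on the LSEC side and 18.2% on the hepatocyte side, with a median difference of -0.32 beside 0.00 for all miRNAs. The largest differences were those of miR-122-5p, the dominant hepatocyte miRNA, at -8.23 ± 0.10, of the NF-kB-induced miR-146a-5p at 4.39 ± 0.08 and of miR-101b-3p at -3.93 ± 0.06 (SE). Of 11 said to promote it, 8 were called higher in LSECs, 1 was called higher in hepatocytes and 2 were not called, against the same 18.5% and 18.2%, with a median of 0.64. These were led by miR-199a-3p at 2.72 ± 0.05, miR-27a-3p at 2.39 ± 0.06 and miR-199a-5p at 1.67 ± 0.07 (SE). The filter was passed through the LSEC arrays alone by miR-155-5p, miR-199a-3p and miR-222-3p of these 11 and by miR-146a-5p of the 14. Some directions depended on the scaling. The LSEC to hepatocyte ratio in the authors' values was 1.11 for miR-19b-3p, called higher in hepatocytes (-1.09). It was 1.15 for miR-221-3p, the miRNA of the 11 called higher in hepatocytes (-0.49). The other miRNAs of the 14 called higher in hepatocytes were also higher there in the authors' values. Since hepatocytes did not show miR-199a-3p well above background, its normalized signal in LSECs was at least 6.45-fold higher than the lowest detected signal of the hepatocyte arrays (limma adjusted p = 2.41e-05).

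Markers of the cell types separated the arrays as the labels do. All 5 hepatocyte markers were called higher in hepatocytes, against 18.2% of all miRNAs, and their summed authors' levels were 244.1 and 187.3 in LSECs and 62551 and 72914 in hepatocytes. The leading members besides miR-122-5p were miR-122-3p (-5.74) and miR-194-5p (-5.59). Of the 5, miR-802-5p passed the detection filter through the hepatocyte arrays alone. Both strands of the endothelial miR-126a were called higher in LSECs, miR-126a-3p at 8.38 and miR-126a-5p at 5.83, with sums of 76698 and 71399 in LSECs and 59.3 and 103.8 in hepatocytes.

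Markers of other sinusoidal cells lay mostly on the LSEC side, as miR-29b-3p did. Of 8 markers of stellate and mesenchymal cells 6 were tested. Among these, 5 were called higher in LSECs, against 18.5% of all miRNAs. The other, miR-143-5p (-0.88, limma adjusted p = 0.00037), was called higher in hepatocytes, against 18.2% of all. The summed levels of the 8 were 2640 and 2089 in LSECs and 281.3 and 341.8 in hepatocytes. Their largest differences were those of miR-199a-3p, miR-143-3p (1.80) and miR-199a-5p. The call of miR-143-3p ended without either hepatocyte array (limma adjusted p = 0.0566 each) and with the background column (0.69, 0.562), which also ended those of miR-199a-3p and miR-199a-5p. The defining marker miR-199a-3p was detected on neither hepatocyte array, and miR-214-5p on neither LSEC array. All 7 leukocyte and Kupffer cell markers were called higher in LSECs, against that 18.5%, led by miR-146a-5p, miR-150-5p (3.50) and miR-511-3p (2.79), of which the background column ended the call of miR-150-5p (0.17) and turned the sign of miR-511-3p (-0.59). Their sums were 6595 and 6922 in LSECs and 106.7 and 100.5 in hepatocytes. Of the 7, miR-155-5p was detected on neither hepatocyte array, and miR-146a-5p and miR-511-3p were detected on 1. These passed the detection filter through the LSEC arrays alone. The part of these cells in the miR-29b-3p difference was not tested. Of 4 erythroid markers 2 were tested. The call of miR-451-5p (-0.79, higher in hepatocytes, limma adjusted p = 0.0242) ended without normalization (-0.39), under spike scaling (-0.034) and without either LSEC array, and its sign turned with the background column (0.034). The other, miR-486, was not called (-0.012) and lay on the LSEC side with median scaling (0.39) and spikes (0.87). The erythroid sums were 123.7 and 120.8 in LSECs and 153.6 and 126.1 in hepatocytes.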

How the data were processed

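Total RNA of 2 LSEC and 2 hepatocyte samples was measured on single-colour miRNA arrays, grouped by the labels. Per the file headers, the deposited scanner tables hold the median 635 nm intensity of each spot and a background column, with no normalization. The authors' deposited value table holds a processed intensity for each miRNA detected on an array, and its columns each had a median of 25. On each array these values were 1 constant times the spot's signal above the blank mean, with a coefficient of variation of 0.152% to 0.291%. Of 3200 spots, 1664 were blank and 16 were spike controls.

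Intensities of all spots were corrected with normexp (saddle, offset 50), and the 761 miRNA probes were quantile normalized. The detection limit was the blank mean plus 2 SD, after trimming 5% of blanks at each end. The log2 values were computed here from the deposited intensities and tested with limma 3.58.1 in R 4.3.3 across all 653 tested miRNAs, 247 arm pairs or 182 same-number pairs, with Benjamini-Hochberg adjustment and 95% intervals. An exact permutation test of 2 against 2 arrays cannot go below p = 0.333. The script was tested on simulated data.

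The reported fit did not pair samples by replicate number. Deviations of same-numbered arrays from their cell type means had r = 0.032, which cannot tell whether those samples share an animal. Members and lists were chosen with earlier results of these data known. All miR-29 probes are named, with the 3 nearest miRNAs of each and up to 3 tested members of each list with the largest absolute difference. The seed groups and the antisense miRNAs were added after the files were read. The 19 alternatives changed background, offset, scaling, detection filter, moderation, value table, replicate block or the arrays included. A change of detection filter, moderation or replicate block leaves each difference as it was, so only its call can change. Scalings by the median, the 75th percentile and the spikes were run on the corrected signal before the offset was added, a form settled after a first run.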

Additional observations from a re-analysis of the deposited data

How the results depend on the processing

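The miR-29b-3p excess in LSECs kept its direction under all 19 alternatives and its call under 18 of them, from 1.87 to 4.27. Alternatives that changed only the detection filter, moderation or replicate block left it at 2.16 and could not turn its direction. Calls with the reported processing numbered 240 miRNAs, 2 miR-29 probes, 138 arm pairs and 47 same-number pairs. The values that follow are LSEC minus hepatocyte differences (log2), and the causes of the changes were not tested.

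With median scaling the sign turned for miR-29c-3p (0.89), miR-29c-5p minus miR-29c-3p (-0.73), miR-26b-5p (0.84) and miR-486 (0.39). There a call was added for miR-29a-3p (1.38), miR-29a-5p minus miR-29a-3p (-1.25) and miR-29b-5p minus miR-29c-5p (-0.23). Calls there numbered 78 same-number pairs. With the 75th percentile the sign turned for miR-29c-3p (0.24), miR-29a-5p (-0.054), miR-29b-1-5p (-0.075), miR-29c-5p (-0.023), miR-29c-5p minus miR-29c-3p (-0.26), miR-26b-5p (0.16), miR-181b-5p (-0.078), miR-31b (-0.048), miR-211-5p (-0.10), let-7f-1-3p (-0.10), miR-181b-2-3p (-0.10), miR-539-5p (-0.054), miR-30c-2-3p (-0.024) and miR-486 (0.051). There a call was added for miR-29a-3p (0.69), miR-29b-5p (-0.25) and miR-29a-5p minus miR-29a-3p (-0.75). Calls there numbered 445 miRNAs. Without normalization the sign turned for miR-29c-3p (0.99), miR-29c-5p minus miR-29c-3p (-0.83), miR-26b-5p (0.94) and miR-486 (0.44). There a call was added for miR-29a-3p (1.48) and miR-29a-5p minus miR-29a-3p (-1.32). Calls there numbered 74 same-number pairs. With cyclic loess the sign turned for miR-29a-3p (-0.36), miR-29a-5p minus miR-29a-3p (0.49) and miR-29a-5p minus miR-29c-5p (0.0019). There the call ended for miR-29a-3p minus miR-29c-3p (0.21). Under spike scaling the sign turned for miR-29c-3p (1.83), miR-29b-5p (0.17), miR-29c-5p minus miR-29c-3p (-1.40), miR-26b-5p (1.80), miR-25-5p (0.53), let-7e-3p (0.080), miR-338-5p (0.26), miR-3568 (0.044), miR-486 (0.87) and miR-3587 (0.039). There a call was added for miR-29a-3p (2.34), miR-29a-5p (0.40), miR-29c-5p (0.43), miR-29a-5p minus miR-29a-3p (-1.95), miR-29a-5p minus miR-29b-1-5p (0.27), miR-29b-1-5p minus miR-29c-5p (-0.30) and miR-29b-5p minus miR-29c-5p (-0.25). Calls there numbered 454 miRNAs, 6 miR-29 probes and 95 same-number pairs. In the authors' values the sign turned for miR-29c-3p (0.68), miR-26b-5p (0.60) and miR-486 (0.75). There the call ended for miR-29a-3p minus miR-29c-3p (0.45). There a call was added for miR-29a-3p (1.13) and miR-29a-5p (0.88). Fewer probes have values on all arrays there, and calls numbered 4 of 5 miR-29 probes, 86 of 149 arm pairs and 307 of 482 miRNAs. With the background column the sign turned for miR-29b-1-5p (-0.051), miR-26b-5p (0.53), miR-181b-5p (-0.091), miR-181b-2-3p (-0.043), miR-338-5p (0.028), miR-539-5p (-0.018), miR-122-3p (0.81), miR-511-3p (-0.59) and miR-451-5p (0.034). There the call ended for miR-29b-3p (2.11), miR-29c-3p (-0.12), miR-29b-1-5p minus miR-29b-3p (-2.16), miR-29b-5p minus miR-29b-3p (-2.11), miR-29c-5p minus miR-29c-3p (0.20), miR-29a-3p minus miR-29b-3p (-0.55), miR-29a-3p minus miR-29c-3p (1.68) and miR-29b-3p minus miR-29c-3p (2.23). Calls there numbered 18 miRNAs, 0 miR-29 probes, 15 arm pairs and 5 same-number pairs. With plain subtraction the sign turned for miR-29a-5p minus miR-29a-3p (0.43), miR-29a-5p minus miR-29b-1-5p (-0.74), miR-29b-1-5p minus miR-29c-5p (0.49) and miR-3568 (0.028). There the call ended for miR-29c-3p (-0.67), miR-29b-1-5p minus miR-29b-3p (-0.90), miR-29c-5p minus miR-29c-3p (1.67) and miR-29a-3p minus miR-29c-3p (0.99). There a call was added for miR-29b-1-5p (1.49). Calls there numbered 79 arm pairs and 26 same-number pairs.

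Leaving out each array in turn, where the lone array left in a cell type is assumed to vary like the others, gave 116 to 233 miRNAs, 1 to 4 miR-29 probes, 115 to 155 arm pairs and 27 to 41 same-number pairs. The values ran over 0.12 to 0.39 for miR-29a-3p, -0.80 to -0.45 for miR-29c-3p, 0.045 to 0.22 for miR-29a-5p, -0.24 to 0.021 for miR-29b-5p, 0.041 to 0.26 for miR-29c-5p, 0.024 to 0.46 for miR-29a-5p minus miR-29b-5p, -0.21 to 0.18 for miR-29a-5p minus miR-29c-5p, -0.22 to 0.071 for miR-29b-1-5p minus miR-29c-5p, -0.0015 to 0.21 for miR-103-3p, -0.22 to 0.032 for let-7e-3p, -0.22 to 0.061 for miR-3568, -0.013 to 0.22 for miR-186-5p and -0.10 to 0.087 for miR-486. With the replicate number as a block, the adjusted p of limma was 0.00516 for miR-29b-3p (2.16), 0.0397 for miR-29c-3p (-0.62) and 0.13 for miR-29a-3p (0.31), no call of a miR-29 probe changed, and 200 miRNAs, 135 arm pairs and 53 same-number pairs were called. For the 36 other named miRNAs, 548 of the alternative values kept direction and call, 35 lost the call, 39 gained one and 37 changed sign. Signals near the blanks limit the 5p probes, no shift of miR-29b-3p against miR-29b-1-5p is read since hepatocytes did not show that strand, and 2 arrays per cell type limit all values.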
